A study of Mus musculus with 6 samples.

Results

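Complex I (NADH:ubiquinone oxidoreductase) is built from subunits of both genomes. RNA of 42 of its subunit genes was followed here: the 7 mt-Nd genes of mitochondrial DNA and 35 nuclear Nduf genes. The members were the listed subunit symbols, matched through their mouse Ensembl gene IDs, and all 42 were found among the 28786 genes of the count table. All 42 also passed the filter on low counts, with at least 840 counts in every library.

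Haematopoietic stem cells (HSCs) came from marrow of the femora and tibiae of C57BL/6 mice of wild-type genotype, 6 to 8 weeks old. The sort gate took cells without lineage markers and CD48 and with Sca-1, c-Kit and CD150, and 1500 cells went into each library. TMRM is a dye that mitochondria take up according to their membrane potential, and 3 libraries are labelled TMRM-high and 3 TMRM-low. All 6 share strain, genotype, tissue and age, so the dye label is the 1 stated difference. Whether libraries of 1 group stem from different mice is not in the labels, so p-values measure the spread between these libraries, which may be technical. The comparison asks whether cells of this gate with a high and a low dye signal differ in the RNA of the respiratory complex where electrons enter from NADH.

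Complex I passes electrons from NADH to ubiquinone and pumps protons across the inner mitochondrial membrane, which helps to build the potential that TMRM reports. Its matrix arm holds the N module, which binds NADH and flavin, and the Q module, which carries electrons over iron-sulphur clusters to the ubiquinone site. The membrane arm holds the proton pumps and is built around the mt-Nd proteins, as the ND1, ND2, ND4 and ND5 modules. Core subunits carry out catalysis and are conserved in bacteria, whereas accessory subunits surround them and many are needed for assembly. HSCs are known for low respiration relative to the progenitors they form.

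The mt-Nd genes lie on chromosome M of the GRCm38 build as intronless coding genes, and they leave mitochondrial DNA on long transcripts that are cut into separate RNAs. The pairs that overlap are shown because their reads cannot be fully separated. The first pair reads in the same direction and stays on 1 mature RNA, with the 7 shared bases in capitals.
mt-Nd4l, last bases, chrM:10146-10173, plus strand: ccaaaatctcaacctactacaATGCTAA
mt-Nd4, first bases, chrM:10167-10194, plus strand: ATGCTAAaaattattcttccctcactaa
The second pair converges on opposite strands and shares 14 bases, again in capitals.
mt-Nd5, last bases, chrM:13531-13565, plus strand: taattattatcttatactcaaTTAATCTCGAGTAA
mt-Nd6, last bases, chrM:13552-13586, minus strand: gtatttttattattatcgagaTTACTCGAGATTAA
mt-Nd6 is the mt-Nd gene read from the opposite strand. The low-input method, tagmentation of amplified cDNA, does not mark strand, so antisense RNA across mt-Nd6 would count as mt-Nd6.

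Values are in CPM, the estimated counts of a gene relative to the scaled size of its library unless stated otherwise. A log2 fold change above 0 means more RNA in TMRM-high libraries and is given with its standard error (SE). Adjusted p-values come from edgeR's quasi-likelihood test with Benjamini-Hochberg adjustment over 13662 genes, and a gene was called below 0.05. The totals of the libraries ran from 14270069 to 22070594 counts in the TMRM-high group and from 15930495 to 18431567 in the TMRM-low group. The TMRM-high libraries were far more alike than the TMRM-low libraries, with a chi-square per degree of freedom of 3.98 to 6.74 against 46.0 to 51.4 over genes with at least 20 counts. The labels do not say why, and results are therefore also given with each TMRM-high library left out and with the 3 summed. The same order held for the members. The median coefficient of variation of the mt-Nd members was 3.76% between TMRM-high and 9.37% between TMRM-low libraries, and that of the Nduf members was 3.45% and 8.16%.

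Markers of other blood cells moved with the dye label, and their calls can be read against the 5.84% of all genes tested that were higher and the 5.12% that were lower. Summed CPM of 11 HSC markers was 822 to 838 in the TMRM-high group and 1269.8 to 1347 in the TMRM-low group, with 5 lower and none higher. Cd34 was the largest part of the sum in both groups, at 391 ± 4.28 against 530 ± 35.8 CPM, and was 1 of the 5 lower. All 11 had counts in both groups, among them Procr (3.57 ± 0.304 against 33.9 ± 9.84 CPM, SD, n = 3 per group) and Ly6a, the gene of the gate marker Sca-1 (30.3 ± 2.18 against 167 ± 7.77 CPM). The genes of the gate markers c-Kit and CD150 did not pass. Kit was at 263 ± 4.93 against 248 ± 53.9 CPM, and Slamf1 at 5.53 ± 0.569 against 5.13 ± 3.98 CPM. RNA of Cd48, whose protein the gate leaves out, was present at 147 ± 2.82 and 137 ± 22.6 CPM; this gene was looked up after its values were seen. Sums of 10 granulocyte markers were 14956 to 15365 against 3577 to 3933 CPM (10 of 10 higher), of 9 erythroid markers 231 to 259 against 50.9 to 67.6 (6 of 9 higher), and of 8 B cell markers 503 to 509 against 42.8 to 45.8 (8 of 8 higher). Sums of 6 basophil and mast cell markers were 231 to 235 against 31.1 to 52.5 CPM (3 of 6 higher). Those of 6 tested T and NK cell markers were 603 to 612 against 342 to 429 (1 higher, 4 lower). Those of 7 tested endothelial and stromal markers were 193 to 198 against 101 to 114 (2 higher). The higher sums came largely from Nkg7 (556 ± 6.18 against 218 ± 24.1 CPM) and Vcam1 (94.1 ± 3.47 against 0.566 ± 0.534 CPM). Most estimates in both lists were below 0, at 5 of 6 (median log2 fold change -2.83) and 4 of 7 (-1.09). Plvap was the 1 tested marker at 0 in all 3 libraries of a group, TMRM-low. The part of other cells in the results that follow was not tested, and in bulk RNA fewer cells of a type and less RNA per cell cannot be told apart.

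Of the 42 subunit RNAs, 4 were higher in TMRM-high libraries, 5 were lower and 33 did not pass. The higher ones were mt-Nd1, mt-Nd3, mt-Nd4 and Ndufa1, and the lower ones were Ndufs3, Ndufs7, Ndufs8, Ndufa9 and Ndufa13. The 9 called members were 21.4% of 42. Over all genes tested 11.0% were called, 5.84% higher and 5.12% lower. Among the 3072 genes between the lowest and the highest mean CPM of the Nduf members, 16.3% were called, 8.89% higher and 7.45% lower. The median log2 fold change was -0.09 over the 42 members and -0.03 over all genes tested.

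The estimates of the mt-Nd and Nduf genes mostly differed in sign. All 7 mt-Nd estimates were above 0, with a median of 0.22, and 27 of the 35 Nduf estimates were below 0, with a median of -0.15. Of all 13662 genes tested, 6448 were above 0 and 7214 below 0. All genes share the same libraries, and mt-Nd RNAs come from shared long transcripts, so the signs are not independent of each other. The mt-Nd6 estimate was near 0 (0.03, SE 0.113) and fell below 0 without TMRM-low replicate 1 or 3. In 4 of 7 mt-Nd genes every TMRM-high library lay above every TMRM-low library, a pattern found in 18.4% of all genes tested. In 18 of 35 Nduf genes every TMRM-high library lay below every TMRM-low library, found in 17.0% of all genes, and in 3 (Ndufa1, Ndufb3 and Ndufb5) it lay above. Unlike the calls, these shares of all genes were not also taken within the CPM range of the Nduf genes. Most single differences were small: the largest among the members were 1.52-fold upward (Ndufa1) and 1.43-fold downward (Ndufs7).

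**Figure D1:**
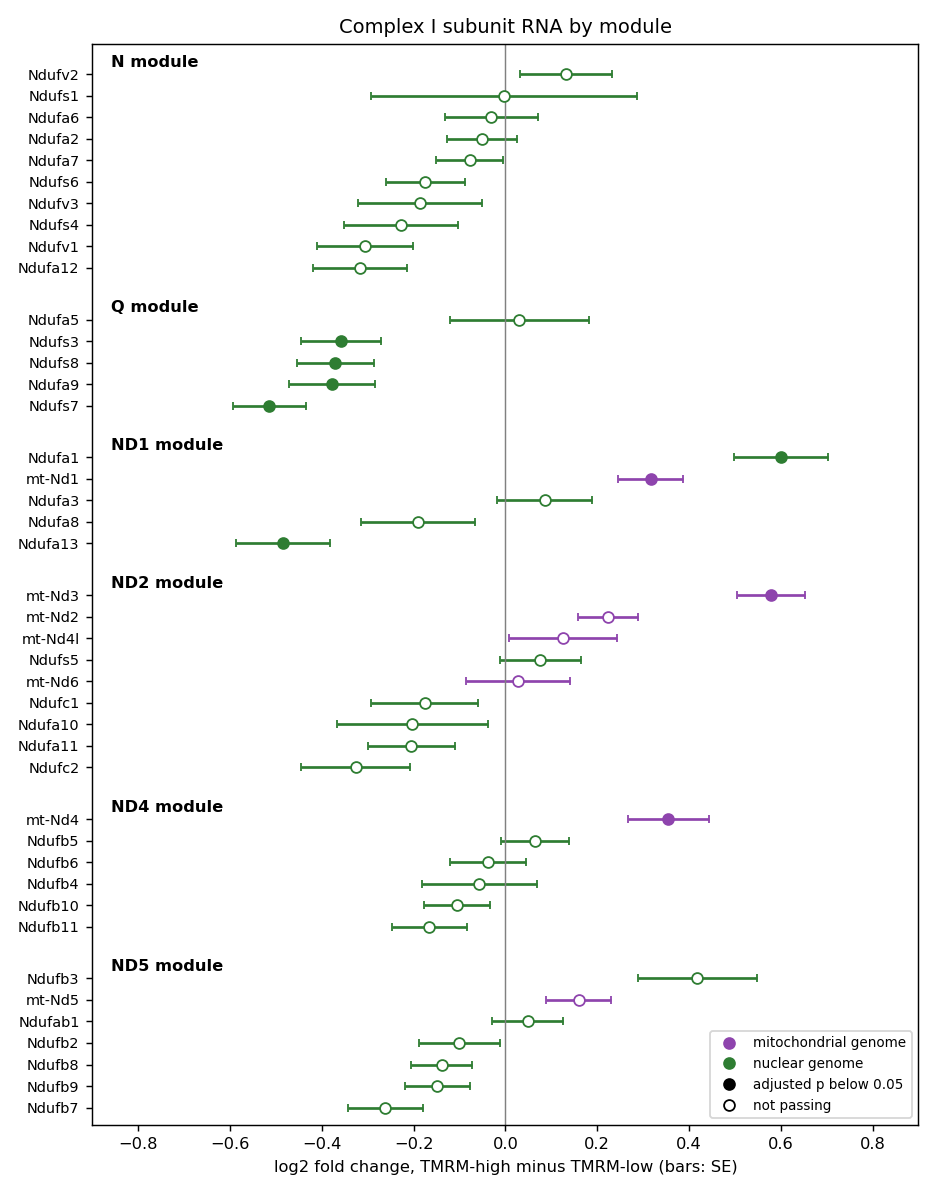
Log2 fold change (TMRM-high minus TMRM-low, x axis) of the 42 complex I subunit RNAs, grouped by module, with bars of 1 SE; purple points are mitochondrial genes, green points nuclear genes, and filled points have an adjusted p below 0.05. The 7 mitochondrial points lie right of 0, and 4 of 5 points of the Q module are filled and lie left of it.

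Among the mitochondrial genes, mt-Nd3 showed the clearest difference. It encodes a small subunit of the ND2 module whose matrix loop lies near the ubiquinone channel (chromosome M, 9459 to 9806). Its RNA was at 459, 453 and 449 CPM in the TMRM-high libraries and at 286, 336 and 289 CPM in the TMRM-low libraries. The groups were well apart, with a log2 fold change of 0.58 (SE 0.0747, adjusted p = 0.00309), or 1.49-fold. With any 1 library left out the log2 fold change of mt-Nd3 stayed between 0.54 and 0.66 and the call held.

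mt-Nd1 encodes the core subunit that closes the ubiquinone-binding chamber from the membrane side (chromosome M, 2751 to 3707). Its RNA was at 3992, 4307 and 4288 CPM in the TMRM-high libraries and at 3029, 3426 and 3653 CPM in the TMRM-low libraries. All 3 TMRM-high libraries were above the highest TMRM-low library, with a log2 fold change of 0.32 (SE 0.0707, adjusted p = 0.0298). mt-Nd4, an antiporter-like proton pump subunit (chromosome M, 10167 to 11544), was at 2269, 2442 and 2414 CPM in TMRM-high libraries. In TMRM-low libraries mt-Nd4 was at 1660.35, 1783 and 2128 CPM. The groups did not overlap, but TMRM-low replicate 3 came close to the TMRM-high range, and the log2 fold change was 0.35 (SE 0.0888, adjusted p = 0.0433). mt-Nd1 did not pass when TMRM-high replicate 1 (adjusted p = 0.0756), 2 (0.138) or 3 (0.144) was left out, nor when TMRM-low replicate 2 was (0.0538). mt-Nd4 did not pass when TMRM-high replicate 1 (0.117), 2 (0.177) or 3 (0.178) was left out, nor when TMRM-low replicate 1 (0.0682) or 2 (0.0931) was.

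The other 4 mt-Nd genes did not pass. mt-Nd2, a second antiporter-like subunit, was at 942, 978 and 959.8 CPM in TMRM-high and at 750.2, 881 and 835 CPM in TMRM-low libraries. Its groups did not overlap, and its log2 fold change was 0.22 (SE 0.0653, adjusted p = 0.0709). mt-Nd5, the antiporter-like subunit at the far end of the membrane arm, was at 1345, 1472 and 1443 CPM against 1151, 1365 and 1298 CPM. The lowest TMRM-high library of mt-Nd5 lay below the highest TMRM-low library, and its log2 fold change was 0.16 (SE 0.0711, adjusted p = 0.211).

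mt-Nd4l, a small subunit next to mt-Nd6 in the complex, was at 161, 157 and 164 CPM against 129, 174 and 138 CPM, with TMRM-low replicate 2 above all others (log2 fold change 0.13, SE 0.118, adjusted p = 0.568). mt-Nd6 was at 472, 505 and 502 CPM against 431, 579 and 441 CPM, again with TMRM-low replicate 2 on top (0.03, SE 0.113, adjusted p = 0.913). mt-Nd4l and mt-Nd4, which share a mature RNA, had different estimates here, 0.13 and 0.35, and the difference between them was not tested. The 7 shared bases shown above are a small part of either gene.

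**Figure D2:**
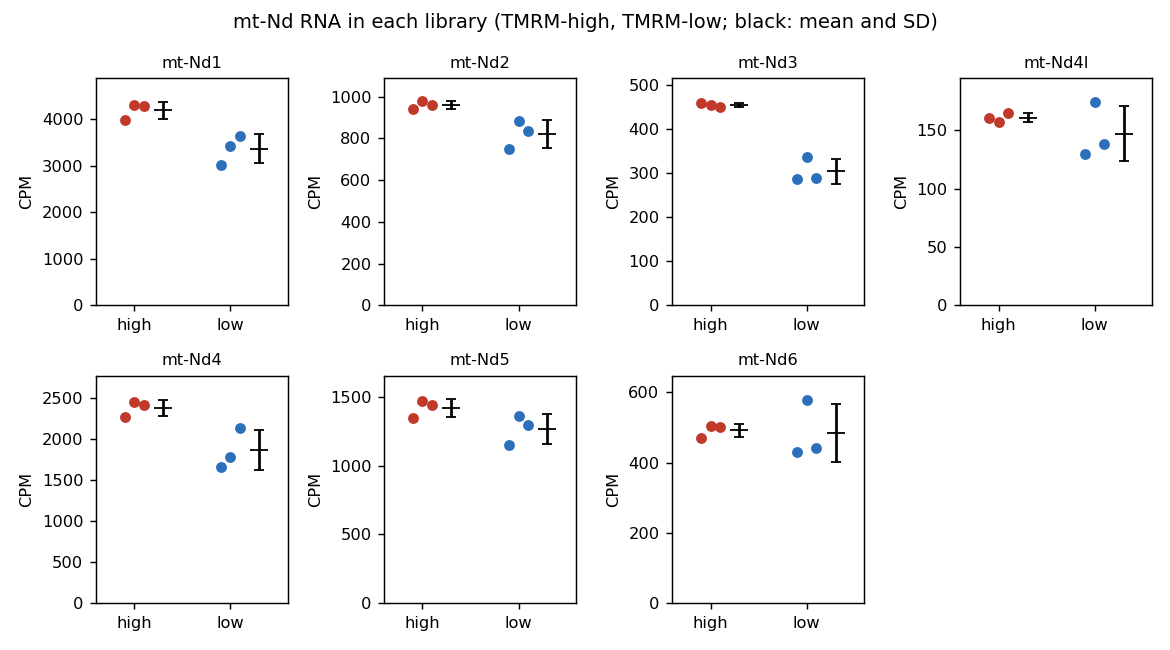
CPM (y axis, from 0) of the 7 mt-Nd RNAs in each TMRM-high (red) and TMRM-low (blue) library, with the mean and SD of each group in black. In mt-Nd1, mt-Nd2, mt-Nd3 and mt-Nd4 the groups do not overlap, whereas in mt-Nd4l and mt-Nd6 the highest point is a TMRM-low library.

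The other 6 mRNAs of mitochondrial DNA gave a reference for the mt-Nd genes. mt-Atp6, a subunit of ATP synthase, rose from 9642 ± 551 to 11228 ± 550 CPM (SD, n = 3 per group; log2 fold change 0.22, SE 0.0541, adjusted p = 0.0413). It was the 1 member of the 6 that edgeR called, and 5 of the 6 were above 0, with a median of 0.18. DESeq2 called 4 of them higher and 0 lower, and limma voom called 3 higher and 1 lower. mt-Atp8, which overlaps mt-Atp6, was the member below 0, at -0.42 (SE 0.170, adjusted p = 0.172). All 13 mitochondrial mRNAs together made up 6.35%, 6.94% and 6.91% of counts in TMRM-high libraries and 5.25%, 5.95% and 6.14% in TMRM-low libraries. The mt-Nd share of these was 15.2%, 15.0% and 14.9% against 13.8%, 14.4% and 14.3%. Within the mt-Nd sum the mt-Nd3 share was 4.76%, 4.40% and 4.39% against 3.85%, 3.93% and 3.29%. In each of these 3 shares every TMRM-high library lay above every TMRM-low library. mt-Nd3 had the largest log2 fold change of the mt-Nd genes, so its share restates that difference and is no separate result. The mt-Nd share of mitochondrial mRNA differed by less than 1 percentage point in means that were 15.0% ± 0.110 and 14.2% ± 0.348 (SD, n = 3 per group).

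The nuclear Q module carried most of the lower calls. Of its 5 listed genes, 4 were lower, 0 were higher and Ndufa5 did not pass, against 5.12% of all genes lower, and the median was -0.37. Its summed level was 589.7, 580.3 and 581 CPM in TMRM-high libraries and 768, 706 and 775 CPM in TMRM-low libraries. The Q module was therefore 12.5%, 12.7% and 12.4% of the Nduf sum against 14.6%, 14.4% and 15.4%, with no overlap. This share restates the lower calls of its genes and is no separate result.

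Ndufs7 encodes the core subunit that holds the last iron-sulphur cluster before ubiquinone (chromosome 10, 80249121 to 80256794). It was at 161, 151 and 155 CPM in the TMRM-high libraries and at 236, 205 and 227 CPM in the TMRM-low libraries. The groups were far apart, with a log2 fold change of -0.51 (SE 0.0798, adjusted p = 0.00688). Ndufs8, whose protein holds a pair of iron-sulphur clusters upstream of that one (chromosome 19, 3908863 to 3912774), was at 124, 129.5 and 129 CPM against 151, 174 and 169 CPM. Every TMRM-high value was below every TMRM-low value, with a log2 fold change of -0.37 (SE 0.0839, adjusted p = 0.0303).

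Ndufs3 encodes a core subunit on which the Q module is assembled (chromosome 2, 90894634 to 90904827). It was at 94.9, 87.4 and 89.4 CPM against 118, 114 and 117 CPM, a log2 fold change of -0.36 (SE 0.0869, adjusted p = 0.0384). Its TMRM-low libraries were nearly equal, unlike those of most members. Ndufa9, an accessory subunit at the junction of the arms (chromosome 6, 126821721 to 126849136), was at 122, 128 and 131 CPM against 167, 148 and 179.9 CPM (-0.38, SE 0.0938, adjusted p = 0.0415). Ndufa5, a small accessory subunit, was at 87.6, 84.0 and 76.7 CPM against 95.5, 65.5 and 82.3 CPM, with overlapping groups (0.03, SE 0.152, adjusted p = 0.930).

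Leaving out TMRM-high replicate 2 (adjusted p = 0.0596) or 3 (0.0584) ended the call of Ndufs7, and leaving out replicate 1 did not (0.0438). Ndufs8 lost it without TMRM-high replicate 1 (0.165), 2 (0.146) or 3 (0.151), and Ndufs3 did so too (0.142, 0.216 and 0.198). Ndufa9 lost it without TMRM-high replicate 1 (0.204), 2 (0.180) or 3 (0.167) and without TMRM-low replicate 1 (0.0635). With no filter on low counts Ndufs3 (0.0852) and Ndufa9 (0.0581) missed the threshold, and Ndufs3 also did with limma voom (0.0692). The log2 fold changes of these 4 genes stayed below 0 in each of these fits.

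The bases upstream of the RefSeq start sites (GRCm38.p6) are shown for the Q module because 4 of its 5 genes fell together while Ndufa5 did not pass. Each run covers the 150 bases before the start, read in the direction of the gene, with motif matches in capitals.
Ndufs7, chr10:80249299-80249448, plus strand: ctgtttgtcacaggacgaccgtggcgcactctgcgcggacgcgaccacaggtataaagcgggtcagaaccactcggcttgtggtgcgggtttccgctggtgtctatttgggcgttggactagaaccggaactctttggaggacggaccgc
Ndufs8, chr19:3912775-3912924, minus strand: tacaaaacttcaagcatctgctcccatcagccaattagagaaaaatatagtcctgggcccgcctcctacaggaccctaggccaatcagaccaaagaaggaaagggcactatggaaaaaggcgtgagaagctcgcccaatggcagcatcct
Ndufs3, chr2:90904722-90904871, minus strand: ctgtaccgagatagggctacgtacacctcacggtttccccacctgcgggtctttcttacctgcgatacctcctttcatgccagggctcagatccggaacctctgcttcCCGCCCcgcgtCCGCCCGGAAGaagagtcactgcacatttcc
Ndufa9, chr6:126849145-126849294, minus strand: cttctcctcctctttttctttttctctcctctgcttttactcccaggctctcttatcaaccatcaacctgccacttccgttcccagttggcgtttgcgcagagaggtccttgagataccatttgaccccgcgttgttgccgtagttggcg
Ndufa5, chr6:24527691-24527840, minus strand: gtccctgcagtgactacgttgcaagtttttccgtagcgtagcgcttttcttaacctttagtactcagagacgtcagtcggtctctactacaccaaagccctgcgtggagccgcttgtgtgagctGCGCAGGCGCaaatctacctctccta
Motifs were searched on both strands from 250 bases before to 50 after the start. They were the NRF1 motif, the ETS motif CCGGAAG, the SP1 motif GGGCGG and the YY1 motif AAGATGG; in Ndufs3 an SP1 and an ETS match overlap. NRF1 and the ETS factor GABP are known activators of respiratory chain genes. The 4 genes that fell had no NRF1 match in these windows, and the capitals in Ndufa5, which has 2 RefSeq starts, are an NRF1 match. Among the 4, Ndufs3 has ETS and SP1 matches in the run shown, and the matches of Ndufs7 and Ndufa9 (YY1) and Ndufs8 (ETS) lie after the start, outside the runs. Ndufa5 also has an SP1 match, which lies after the start used here, outside its run. The gene spans of GENCODE M21 begin further upstream for Ndufs7 (80249121), Ndufa5 (24528013) and Ndufs3 (90904827). The runs of Ndufs7 and Ndufa5 thus lie inside those spans, as does part of the Ndufs3 run. Bases before the GENCODE starts of Ndufs7 and Ndufa5 were not searched. Of 32 Nduf genes with a RefSeq promoter, 21.9% held an NRF1 match, against 5.19% of 27025 genes. The shares were 21.9% against 7.28% for YY1, 46.9% against 38.2% for SP1 and 12.5% against 9.93% for ETS. Ndufa2, Ndufb9 and Ndufs1 had no entry. Outside the Q module, neither Ndufa1, which rose, nor Ndufa13, which fell, had an NRF1 match in its window. The Ndufa13 window also lies inside its GENCODE span, which begins at 69902558. The other genes with an NRF1 match were not called. Their log2 fold changes were -0.20 (Ndufa11), -0.19 (Ndufa8), -0.17 (Ndufs6), -0.06 (Ndufb4), -0.03 (Ndufa6) and 0.08 (Ndufs5). A relation between motifs and differences was not tested. A match is a run of letters, and binding was not measured.

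The nuclear genes of the ND1 module, which joins the arms, went both ways. Ndufa1 encodes a small accessory subunit with a single membrane span that assembly requires (chromosome X, 37187588 to 37191163). It was at 160.3, 159 and 153 CPM in TMRM-high and at 101, 117 and 93.3 CPM in TMRM-low libraries. Ndufa1 was the 1 nuclear subunit that rose, with well separated groups and a log2 fold change of 0.60 (SE 0.102, adjusted p = 0.0102). Ndufa13, an accessory subunit also known as GRIM-19 (chromosome 8, 69894180 to 69902558), fell instead. It was at 145, 136 and 137 CPM against 214, 169 and 201 CPM, a log2 fold change of -0.48 (SE 0.102, adjusted p = 0.0239). Exons of Ndufa13 overlap those of the antisense gene Tssk6, which had 2.25 CPM in TMRM-high and 4.05 CPM in the other libraries. These Tssk6 means are relative to unscaled library totals. Ndufa3 (0.09) and Ndufa8 (-0.19) did not pass. Leaving out TMRM-high replicate 1 (adjusted p = 0.0668), 2 (0.0668) or 3 (0.0603) ended the call of Ndufa1. Ndufa13 did so as well (0.0974, 0.134 and 0.133).

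**Figure D3:**
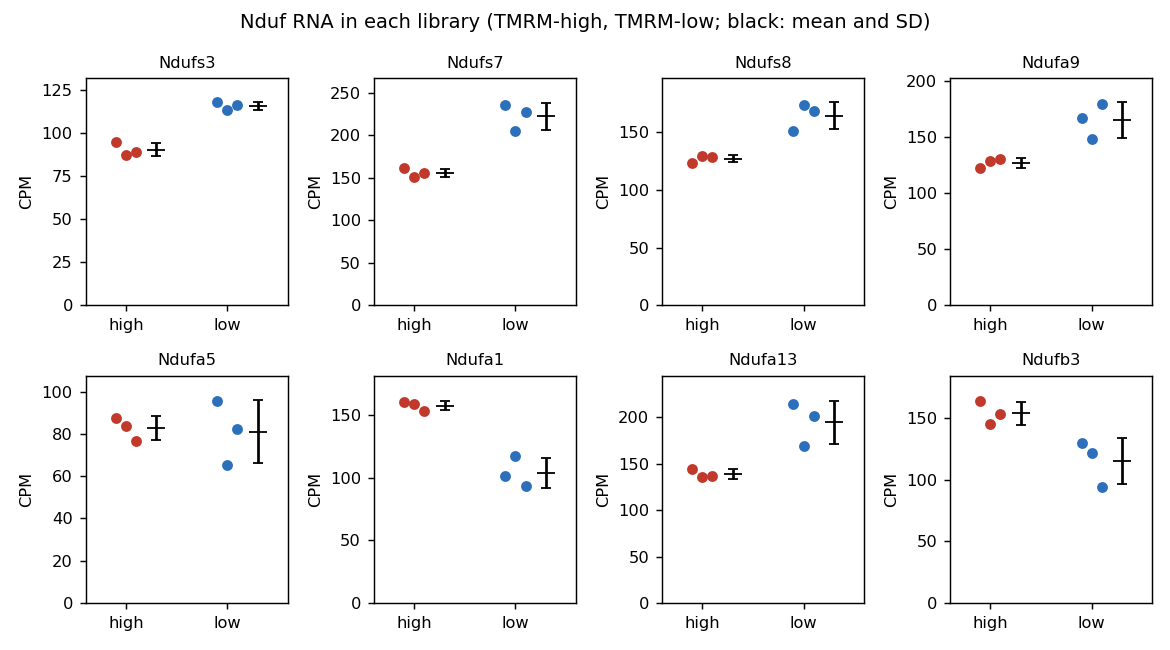
CPM (y axes, from 0) of 8 Nduf RNAs in each TMRM-high (red) and TMRM-low (blue) library, with the mean and SD of each group in black. TMRM-high libraries are the lower group in Ndufs3, Ndufs7, Ndufs8, Ndufa9 and Ndufa13 and the higher group in Ndufa1 and Ndufb3, and in Ndufa5 the groups overlap.

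None of the 10 N module genes was called by edgeR; at an unadjusted p under 0.05 there were 2 lower and 0 higher, DESeq2 called 1 lower and limma voom 0. Of the 10 estimates 9 were below 0, with a median of -0.13. Ndufa12, an accessory subunit, had the smallest p, at 115, 120.4 and 119 CPM against 160.4, 152 and 128 CPM (log2 fold change -0.32, SE 0.102, adjusted p = 0.0910). Its groups did not overlap. Ndufv1, the core subunit that binds NADH and flavin, was at 131, 121 and 138 CPM against 182, 149 and 151 CPM (-0.31, SE 0.105, adjusted p = 0.112). Its flavoprotein partner Ndufv2 had an estimate of 0.13. Ndufs1, which carries further iron-sulphur clusters, had 80.0, 86.5 and 99.6 CPM against 60.5, 69.9 and 136 CPM, the largest coefficient of variation between TMRM-low libraries among the members (46.3%), and an estimate of -0.0027. The other accessory members were Ndufs4 (-0.23), Ndufv3 (-0.19), Ndufs6 (-0.17), Ndufa7 (-0.08), Ndufa2 (-0.05) and Ndufa6 (-0.03). The N module held 28.2% to 28.9% of the Nduf sum in TMRM-high libraries and 27.5% to 28.6% in the others, with overlap.

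In the distal membrane arm 0 of the 16 nuclear genes of the ND2, ND4 and ND5 modules were called by edgeR. At an unadjusted p under 0.05, the ND2 module had 1 lower (Ndufc2), the ND4 module 0, and the ND5 module 1 higher (Ndufb3) and 1 lower (Ndufb7). DESeq2 called 1 higher and 1 lower in the ND5 module and 0 in the others, and limma voom called 0 in all 3. Ndufb3, an accessory subunit with 1 membrane span, had the largest estimate. It was at 164, 145 and 153 CPM against 129.8, 122 and 94.1 CPM, without overlap (log2 fold change 0.42, SE 0.130, adjusted p = 0.0834). Ndufc2, an accessory subunit of the ND2 module, was at 121, 115 and 112 CPM against 169, 144 and 125 CPM, again without overlap (-0.33, SE 0.120, adjusted p = 0.133). Ndufb11 had the smallest p of the ND4 module, at 129, 125 and 128 CPM against 149, 133 and 147 CPM (-0.17, SE 0.0815, adjusted p = 0.256).

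The remaining estimates of the ND2 module were -0.20 for Ndufa10, -0.20 for Ndufa11, -0.18 for Ndufc1 and 0.08 for Ndufs5. Those of the ND4 module were -0.11 for Ndufb10, -0.06 for Ndufb4, -0.04 for Ndufb6 and 0.06 for Ndufb5. Those of the ND5 module were -0.26 for Ndufb7, -0.15 for Ndufb9, -0.14 for Ndufb8, -0.10 for Ndufb2 and 0.05 for Ndufab1, the mitochondrial acyl carrier protein. Of all 20 nuclear genes of the membrane arm, 1 was higher, 1 lower and 18 did not pass (median -0.12). Of the 15 of the matrix arm, 0 were higher, 4 lower and 11 did not pass (median -0.19). By role, 3 of 6 nuclear core subunits were lower (Ndufs3, Ndufs7 and Ndufs8; median -0.33), as were 2 of 29 accessory subunits (6.90%), with 1 higher (median -0.14). Of all genes tested 5.12% were lower and 5.84% higher, and of those in the CPM range of the Nduf genes 7.45% and 8.89%, so the accessory share was near the background. Whether the arms or the roles differ from each other was not tested.

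The ratio of summed mt-Nd to summed Nduf CPM put the opposite signs into 1 number per library. It was 2.05, 2.26 and 2.19 in TMRM-high libraries and 1.42, 1.74 and 1.74 in TMRM-low libraries. The groups did not overlap, at 2.17 ± 0.106 and 1.63 ± 0.187 (SD, n = 3 per group), a log2 difference of 0.41. The difference was 0.39 when mt-Nd1 and Ndufb8, the most abundant member of each genome, were left out of the sums, and 0.31 to 0.46 with any 1 library left out. Both terms contributed. The mt-Nd sum was 9639, 10314 and 10221 CPM against 7437, 8544 and 8783 CPM, and the Nduf sum was 4704, 4570.3 and 4666 CPM against 5252, 4916 and 5039 CPM. The ratio describes members chosen with results in view, so no p is given.

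**Figure D4:**
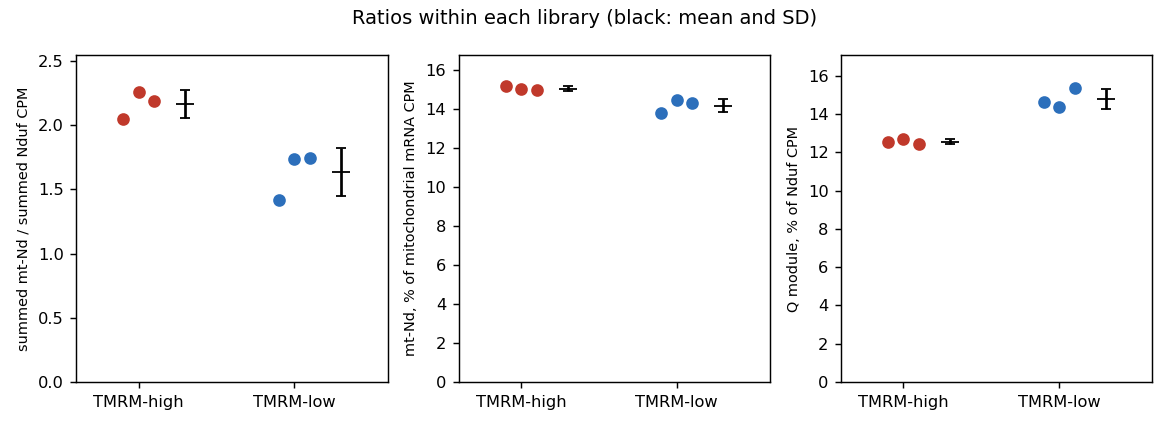
Ratio of summed mt-Nd to summed Nduf CPM, mt-Nd share of mitochondrial mRNA (percent) and Q module share of the Nduf sum (percent) in each TMRM-high (red) and TMRM-low (blue) library, with the mean and SD in black; y axes start at 0. The TMRM-high libraries are above the TMRM-low libraries in the first 2 panels and below them in the third.

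Levels of different subunits were compared as CPM per kilobase of exon, averaged over the 6 libraries. The mt-Nd genes were the 7 most abundant, from 3952 (mt-Nd1) through 1536 (mt-Nd4), 1088 (mt-Nd3), 941 (mt-Nd6), 858 (mt-Nd2) and 738 (mt-Nd5) to 518 (mt-Nd4l). This is the order of means over both groups, and it differed between them for mt-Nd3 and mt-Nd6. In the TMRM-high libraries mt-Nd3 was at 1318, 1303 and 1290.5 and mt-Nd6 at 909, 974 and 966 CPM per kilobase. In the TMRM-low libraries mt-Nd3 was at 823, 964 and 831 and mt-Nd6 at 829.7, 1115 and 850.2, so mt-Nd6 was the higher of the pair in each of them. mt-Nd6 was above mt-Nd2 in all 6 libraries. The Nduf genes ran from 342 (Ndufa2) and 312 (Ndufa1) to 17.1 (Ndufb2) and 11.0 (Ndufs1). Here too the top pair changed places: Ndufa1 was above Ndufa2 in each TMRM-high library and below it in each TMRM-low library. The median mt-Nd level was 10.7, 11.4 and 10.9 times the median Nduf level in TMRM-high libraries and 8.24, 9.96 and 8.56 times in TMRM-low libraries. No correction for fragment length was made, which weighs most on short RNAs such as mt-Nd4l and mt-Nd3. Across the 35 Nduf genes, which share the libraries, the log2 fold change had a weak relation with exon length (Pearson's r = -0.21, Spearman's rho = -0.15) and with mean CPM (r = -0.11, rho = -0.16), given as a description across genes.

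**Figure D5:**
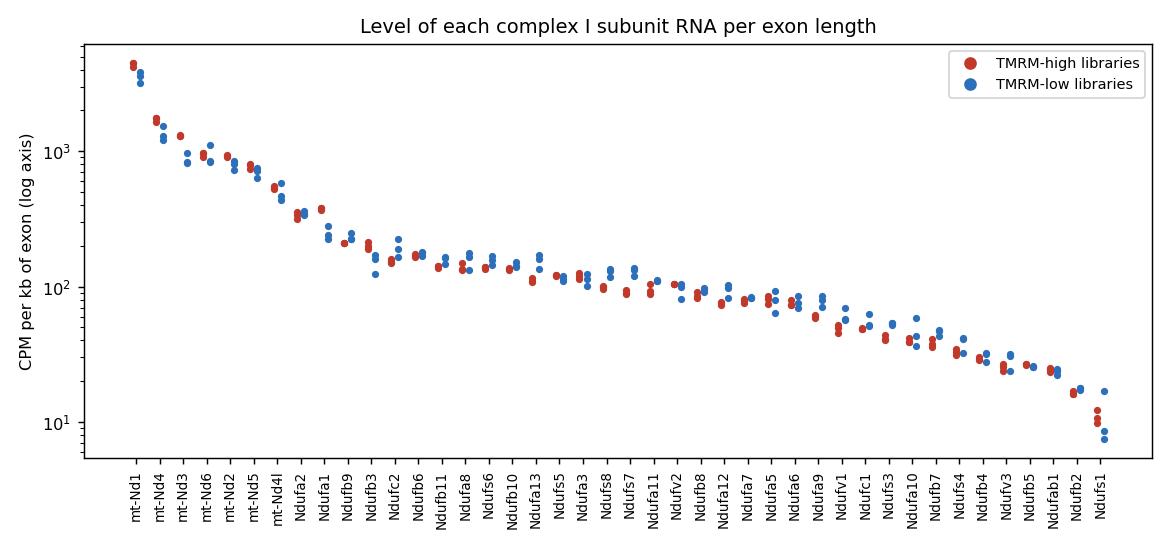
Level of each of the 42 subunit RNAs in CPM per kilobase of exon (y axis, log scale), ordered by the mean over the 6 libraries, with TMRM-high libraries in red and TMRM-low libraries in blue. The 7 mt-Nd RNAs lie above all Nduf RNAs, and Ndufs1 has the lowest mean, 11.0, when all annotated exons are counted.

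Genes that help to build complex I were read from a fixed list of assembly factors. Of 18 in the table, edgeR called 0, with 2 lower and 0 higher at an unadjusted p under 0.05; DESeq2 called 1 lower and limma voom 0. The median was -0.19, and the summed level was 606 ± 19.7 against 681 ± 8.13 CPM (SD, n = 3 per group, TMRM-high first). Tmem70, which takes part in assembly of the membrane arm and of ATP synthase, had 54.4 ± 2.54 CPM against 71.2 ± 1.77 CPM (log2 fold change -0.39, SE 0.112, adjusted p = 0.0678). Ndufaf8, a factor of the Q module route, was at 51.7 ± 2.59 against 62.5 ± 1.07 CPM (-0.27, SE 0.118, adjusted p = 0.194).

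Of 66 genes in 5 lists for mitochondrial gene expression and for the cofactors of complex I, 3 were higher and 3 lower, 9.09% of the lists against 11.0% of all genes, with a median of 0.05. Among 23 genes of mitochondrial transcription and RNA handling, edgeR called 2 lower and 0 higher, with 2 higher at an unadjusted p under 0.05; DESeq2 and limma voom each called 2 lower and 1 higher. Hsd17b10, a subunit of the mitochondrial RNase P that cuts tRNAs out of the long transcripts, fell from 141 ± 2.40 to 82.5 ± 3.46 CPM (log2 fold change -0.78, SE 0.0842, adjusted p = 0.00121). Slirp, which stabilises mitochondrial mRNAs, fell from 86.1 ± 13.0 to 57.4 ± 1.93 CPM (-0.59, SE 0.135, adjusted p = 0.0324). Of 7 genes of mitochondrial DNA replication, edgeR called 0, with 1 higher and 1 lower at an unadjusted p under 0.05; DESeq2 called 1 higher and 1 lower and limma voom 0. Ssbp1, the mitochondrial single-strand binding protein, was at 131 ± 2.38 against 152 ± 7.65 CPM (-0.22, adjusted p = 0.115). The DNA polymerase subunit gene Polg was at 35.6 ± 1.05 against 24.4 ± 4.77 CPM (0.54, adjusted p = 0.124).

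Among 9 nuclear regulators of respiratory genes, Sp1 was the 1 member called by edgeR, at 76.0 ± 3.68 against 52.6 ± 6.27 CPM (0.53, SE 0.131, adjusted p = 0.0404); DESeq2 called 1 higher and limma voom 0. Of 13 genes of ubiquinone synthesis, edgeR and limma voom each called 1 higher and 1 lower, and DESeq2 called 2 and 1. Coq10b, a ubiquinone-binding protein, rose from 8.66 ± 3.32 to 24.5 ± 1.48 CPM (1.503, SE 0.319, adjusted p = 0.0245), and the atypical kinase Coq8a fell from 56.1 ± 7.98 to 33.5 ± 2.07 CPM (-0.74, SE 0.158, adjusted p = 0.0238). Of 14 genes of iron-sulphur cluster assembly, edgeR called Isca1 alone, as did limma voom, whereas DESeq2 called 3 higher. Isca1 rose from 54.3 ± 6.87 to 115 ± 6.39 CPM (1.08, SE 0.124, adjusted p = 0.00166). Hsd17b10 and Isca1 kept their calls with any 1 library left out. Slirp, Coq8a, Coq10b, Sp1 and mt-Atp6 lost theirs without any 1 of the TMRM-high libraries, with adjusted p-values from 0.0613 (mt-Atp6 without replicate 1) to 0.215 (Sp1 without replicate 2). mt-Atp6 also lost it without TMRM-low replicate 1 (0.0513) or 2 (0.0613), and Sp1 without TMRM-low replicate 1 (0.05002) and with limma voom (0.0578).

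The number of calls depended on the closely alike TMRM-high libraries. Without TMRM-high replicate 1, 1 member was higher (mt-Nd3) and 1 lower (Ndufs7), against 1.82% and 1.41% of all genes then tested. Without replicate 2, mt-Nd3 was the 1 higher member and 0 were lower, against 1.92% and 1.35%. Without replicate 3 the counts were the same, against 1.77% and 1.28%. With the 3 TMRM-high libraries summed into 1, 0 members were called in either direction, against 0.525% of all genes higher and 0.223% lower. In that fit the spread is that of the TMRM-low group, so its power is lower, and all 7 mt-Nd estimates stayed above 0 in it and 25 of 35 Nduf estimates below 0.

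Copies and overlapping genes bear on single members. Reads of Ndufb4 can also be placed on its copy Ndufb4c, with a mean of 32.3 CPM in TMRM-high libraries and 36.6 CPM in the others. Exons of 13 nuclear members overlap genes on the other strand, which unstranded reads cannot separate. The 4 nuclear pseudogene copies of mt-Nd genes in the table had at most 0.0308 CPM. CPM values of copies are relative to unscaled library totals. When the counts of 17 copies and overlapping genes were added to the 14 members they resemble, 4 members were again higher and 5 lower.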

How the data were processed

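RNA of 6 libraries, 3 TMRM-high and 3 TMRM-low, was compared. Per the labels' protocols, cDNA was amplified by 13 PCR cycles and sequenced as paired reads of 150 bases, without molecular identifiers. The tools named in the submitters' processing notes are Salmon, listed as version 0.03.1, and Trim Galore 0.5.0, with the build GRCm38; the annotation is not given in the sources used here, nor are settings. Estimated counts per gene, not scaled to depth, are what the authors deposited; 27.0% are not whole, and all were rounded. Symbols were matched for 27728 of 28786 IDs.

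Genes were filtered by filterByExpr (13662 kept), scaled by TMM and fitted with edgeR 4.0.16 (R 4.3.3; glmQLFit, robust; group as the 1 term) over all genes. The SE is the log2 fold change divided by the square root of F. Other tools were DESeq2 1.42.0 and limma 3.58.1. Exons, positions and copies (shared words of 31 bases, at least 5% of a member's) came from GENCODE M21. The fit was tested on simulated counts. All members were described; values in every library are given for called members, all mt-Nd genes and the smallest p of modules without a nuclear call, and other lists by up to 4 called or 2 uncalled genes. Ndufa5, Ndufv1 and Ndufs1 were described beyond this rule, after their values were seen. The members and lists were chosen with earlier results of these data known. The mitochondrial rRNAs and the assembly factor Coa1 are not analysed here. Alternatives were other scalings, filters, tools and thresholds, a replicate block, libraries left out or summed, and added copies.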

Additional observations from a re-analysis of the deposited data

How the results depend on the processing

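All 7 mt-Nd estimates stayed above 0 under each scaling, filter and tool tried, and 25 to 28 of 35 Nduf estimates stayed below 0 over all alternatives. mt-Nd6 turned to -0.044 without TMRM-low replicate 1 and -0.031 without replicate 3 (and was 0.18 without replicate 2), and Ndufa5 to -0.0089 without TMRM-high replicate 1 and -0.10 without TMRM-low replicate 2 (and was 0.17 without TMRM-low replicate 1). With 1 library left out, the counts ran from 1 to 4 higher and 0 to 8 lower members (4 and 5 with all libraries), 1 to 3 higher mt-Nd genes (3), 0 to 2 higher and 0 to 8 lower Nduf genes (1 and 5), 0 to 4 lower Q module genes (4), 0 to 3 lower assembly factors (0), and 1 to 7 higher and 1 to 4 lower genes of the 5 other lists (3 and 3). Of all genes, 250 to 1398 were then higher and 181 to 1174 lower, against 798 and 700. With the TMRM-high libraries summed, all these member and list counts were 0 (80 and 34 of all genes). At a minimum of 1.5-fold, 1 member was higher and 0 lower, with 0 mt-Nd genes, 0 lower Nduf genes and 0 lower Q module genes. Without a low-count filter, 3 members were lower, all 3 of them Nduf and 2 of the Q module. DESeq2 called 2 higher Nduf genes, 1 lower assembly factor and 8 higher genes of the 5 lists (1324 higher and 1337 lower of all genes); an adjusted p of 0.10 called 2, 1 and 7 (1190 and 1138 of all genes). The cause of these changes was not tested beyond what the fewer libraries or other threshold set by construction. The ratio of the median mt-Nd to the median Nduf level per kilobase moved from 9.95 to 7.34 with the longest transcript in place of all exons. Added copies, chosen after seeing the data, changed no count. The shift of the median of all genes was at most 0.0297 (log2).

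Libraries of the 2 groups share replicate numbers but did not deviate together: correlations of same-numbered pairs were -0.014, 0.016 and 0.021. With the replicate number as a block, 2 members were lower, both Nduf and 1 of them of the Q module, and 1 gene of the 5 lists was lower; 582 of all genes were higher and 449 lower. The adjusted p was then 0.106 for Ndufs3, 0.0652 for Ndufs8, 0.0758 for Ndufa9, 0.0617 for Slirp, 0.0615 for Coq8a and 0.0915 for Sp1.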
